A study of Mus musculus with 12 samples.

Results

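Inflammasomes are protein platforms that myeloid cells build when they sense danger, and pyroptosis is the lytic cell death that follows. Described here are 10 genes of this machinery out of the 34989 genes in the deposited files, in macrophages from mouse melanomas. The 10 were taken as a named set of genes and all 10 passed the filter on low counts. They comprise the sensors Nlrp3, Nlrc4, Aim2 and Mefv, the adaptor Pycard, the caspases Casp1, Casp4 and Casp8, the pore-forming protein Gsdmd and the cytokine Il18.

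As background, a sensor that detects its trigger recruits the adaptor ASC, the product of Pycard, which gathers and activates caspase-1. Caspase-1 cuts the precursors of interleukin-1β and interleukin-18 into active cytokines and cuts gasdermin D, whose freed end opens pores in the plasma membrane. Most of these steps are set by protein assembly and cleavage, which mRNA levels do not measure. In macrophages the pathway is known to need a priming signal that raises the mRNA of some of its parts, Nlrp3 and Il1b among them.

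The 12 libraries were RNA from cells labelled as tumor-associated macrophages, in 4 groups of 3. The groups were Control, CD40 agonist (the activating antibody FGK4.5 at 10 mg/kg, given every 3 days for at most 10 doses), CSF1Ri (chow with 600 mg/kg of the CSF1 receptor inhibitor PLX6134) and Combination, which received both agents. The protocol names PBS and normal chow as the vehicle and the control diet. Treatment started on day 30 after induction, while tumors totalled less than 100 mm3, and went on for 30 days unless tumors reached 2 cm3 first. All mice of all 4 groups carried the same transgenes, including Tyr::CreER, an inducible Cre recombinase under the promoter of tyrosinase, a melanocyte enzyme, and the labels give the genotype as wild type throughout. The mice were age-matched, but no age is given in the sources used here, and neither is the gate or selection that gave the macrophages. Each library pooled at least 3 tumors. Nothing in the labels says that the 3 libraries of a group came from separate experiments, so the p-values speak only for the spread among these pools, which may be technical.

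Library totals ran from 26316328 to 39818657 estimated counts, from 34168389 to 39818657 in Combination and at most 33948213 elsewhere. The summed level of 10 macrophage markers was 1708 to 2822 CPM (counts scaled to a common library size) over the 12 libraries. Within it the complement genes C1qa, C1qb and C1qc, markers of mature macrophages, were low in CSF1Ri. C1qa was at 16.1 to 16.4 CPM in Control and at 0.0679, 0.937 and 5.54 in CSF1Ri, and C1qc was at 0 in CSF1Ri replicate 2. None of the 10 markers passed the test described below. Markers of other cells were present too, with neutrophil sums of 463 to 3238 CPM and monocyte sums of 4876 to 14998 CPM. Some of these passed the same test. In Combination against Control, 2 monocyte, 1 neutrophil and 1 B cell marker were lower. In the same comparison 3 markers of eosinophils, basophils and mast cells were higher (0.774% of all genes passed). In Combination against CSF1Ri, 1 neutrophil and 3 eosinophil, basophil and mast cell markers were lower and 1 NK cell marker higher (1.94% of all genes). In a principal component analysis of all tested genes, 3 libraries lay apart from the others of their group. These were CD40 agonist replicate 1, CSF1Ri replicate 3 and Combination replicate 2. Where leaving them out moved a log2 difference or a median of the 10 genes by over 1.5 times, the value without 1 or all of them is given too.

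None of the 10 genes passed the test in any comparison. The test was edgeR's quasi-likelihood test with Benjamini-Hochberg adjustment over 16027 genes and a threshold of 0.05 on the adjusted p. CD40 agonist against Control called 0% of all tested genes, CSF1Ri against Control 0.0125%, Combination against Control 0.774%, Combination against CD40 agonist 0% and Combination against CSF1Ri 1.94%. The interaction of both agents, which asks whether their joint effect departs from the sum of the single effects on the log scale, called 0% of genes. The test for any difference among the 4 groups called 1.2%. At an unadjusted p under 0.05, edgeR gave 0 of the 10 genes for CD40 agonist against Control (7.68% of all genes) and 2 for CSF1Ri against Control (Nlrp3 and Casp4, 9.47% of all genes). It gave 3 for Combination against Control (Nlrc4, Pycard and Casp4, 14.8%), 4 for Combination against CD40 agonist (Nlrc4, Pycard, Casp1 and Gsdmd, 9.05%) and 1 for Combination against CSF1Ri (Nlrc4, 18.3%). The interaction gave 1 (Casp1, 8.14%) and the test for any difference gave 4 (Nlrc4, Pycard, Casp4 and Mefv, 16.3%). DESeq2 called 1 of the 10, Pycard in Combination against Control, and 0 in the other 6 tests. In that comparison DESeq2 called 1130 of the 15123 genes it tested. limma voom, edgeR with bias adjustment and limma on TPM called 0 in all 7. The spread between libraries of one group was wide, with a biological coefficient of variation of 61% over all genes, so a difference that misses the threshold here is not shown to be absent. In bulk RNA, fewer cells of a type and less RNA per cell cannot be told apart.

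**Figure D1:**
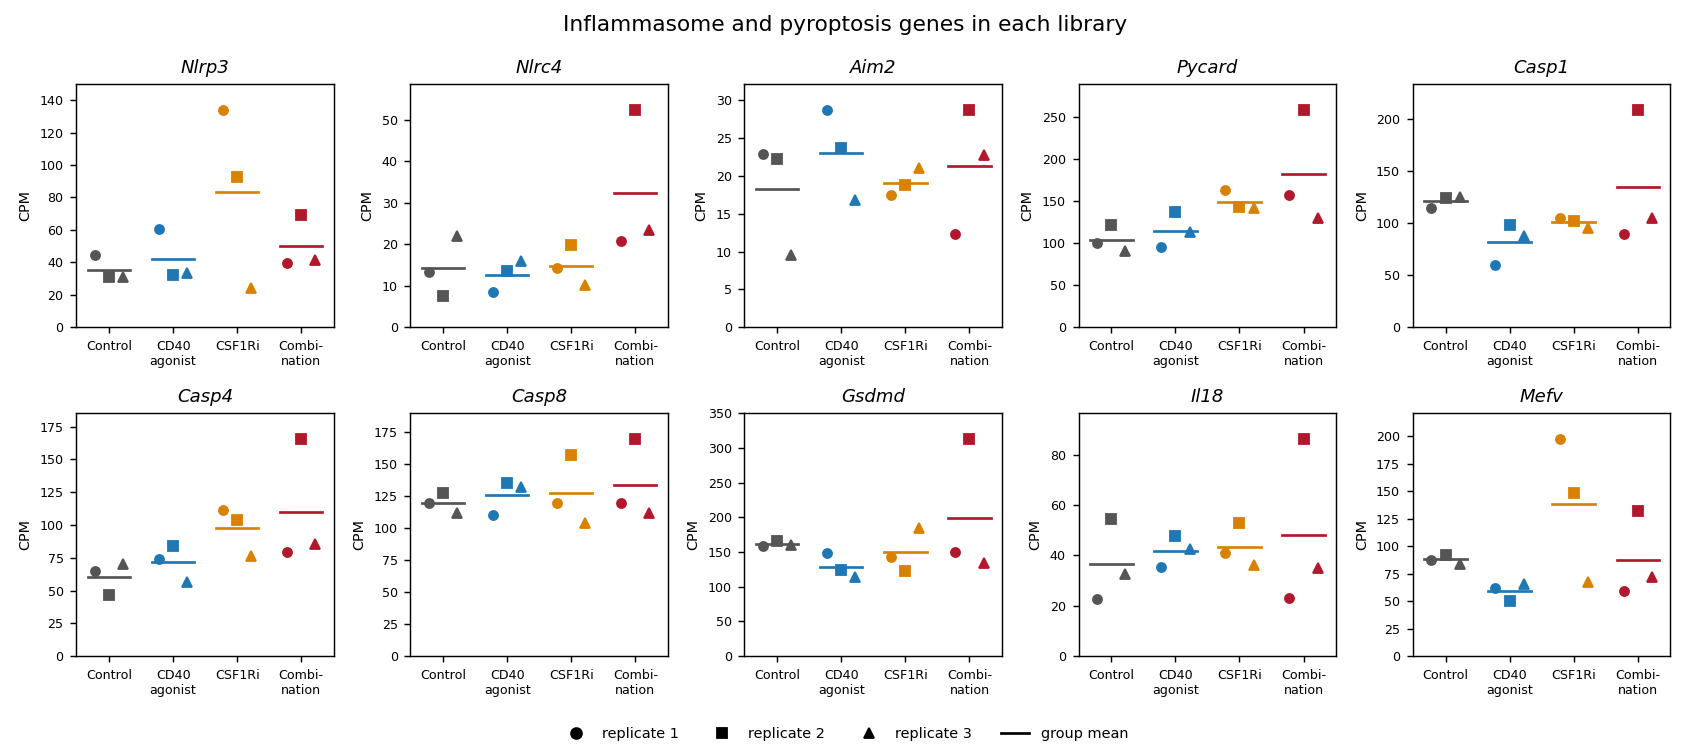
Level of each of the 10 genes in CPM (y axis, linear from 0) in the 4 groups (x axis). Each point is 1 library, its shape gives the replicate number and the line is the group mean of 3. Combination replicate 2 is the highest point for 7 genes, and CSF1Ri replicates 1 and 2 are the highest points for Nlrp3 and Mefv.

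Compared per length, as TPM (transcript levels scaled for length and depth) summed over each gene's transcripts, the adaptor was the most abundant and the sensors the least. Pycard had 211 ± 22.5 TPM in Control (SD, n = 3) and stood first in every group, above 96.6% of tested genes by its mean over all libraries. In Control it was followed by Gsdmd at 131 ± 2.24, Casp1 at 115 ± 6.55, Casp8 at 82.8 ± 4.13 and Casp4 at 80.6 ± 20.5 TPM. Il18 came next at 67.7 ± 28.7, then Mefv at 37.5 ± 0.931, Aim2 at 32.9 ± 10.5, Nlrp3 at 15.5 ± 5.49 and Nlrc4 at 5.02 ± 2.61 TPM. The Control ranges of neighbours overlapped for Casp8 and Casp4, Casp4 and Il18, Mefv and Aim2, and Aim2 and Nlrp3, so those pairs have no order beyond their spread. The sensor Nlrc4 stood last in every group and lay below the middle of all tested genes, whose median was 6.70 TPM. Below the adaptor the order shifted between groups. Casp4 was second in CSF1Ri at 135 ± 21.7 TPM, with a range that overlapped that of Gsdmd at 122 ± 27.2. In CD40 agonist Casp1 stood sixth at 73.8 ± 16.6 TPM, and every neighbouring pair from Gsdmd to Casp1 overlapped.

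**Figure D2:**
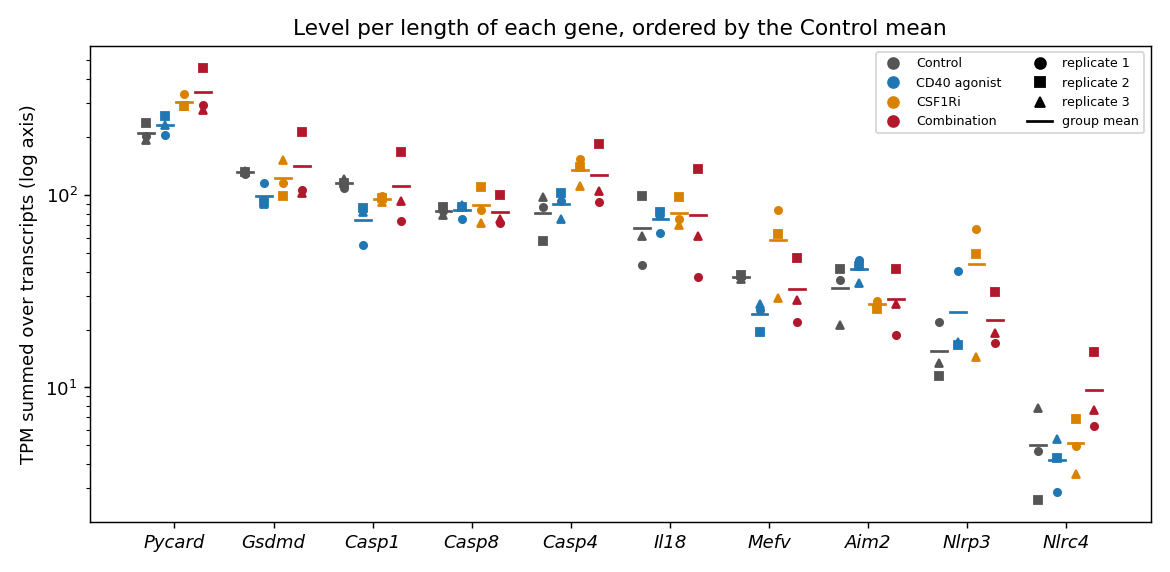
TPM of each gene (y axis, log scale) with genes ordered by their Control mean (x axis). Colours are groups, shapes are replicate numbers and short lines are group means of 3. Pycard lies highest and Nlrc4 lowest in each group, between means of 211 and 5.02 TPM in Control.

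Nlrp3 lies on chromosome 11 (59541568 to 59566956, plus strand, GRCm38) and encodes the sensor that reacts to potassium efflux, crystals and other signs of cell damage. It had 44.6, 30.7 and 31.0 CPM in Control replicates 1, 2 and 3, 60.7, 32.2 and 33.7 in CD40 agonist, 134, 92.4 and 24.0 in CSF1Ri, and 39.7, 69.3 and 41.2 in Combination. CSF1Ri replicates 1 and 2 were the highest of the 12 libraries, while CSF1Ri replicate 3 was the lowest, so the CSF1Ri and Control ranges overlapped. CSF1Ri was higher than Control by 1.24 on the log2 scale (SE 0.51, edgeR adjusted p = 0.482), a difference that did not pass. It was 0.70 without CSF1Ri replicate 1. Combination against CSF1Ri differed by -0.74 (SE 0.51, edgeR adjusted p = 0.479), by -0.21 without that library and by -1.17 without CSF1Ri replicate 3. The full-length transcript Nlrp3-201 of 3933 bases gave the same picture, at 10.4, 8.24 and 6.82 TPM in Control and 31.7, 22.5 and 5.43 in CSF1Ri. The short transcript Nlrp3-203 of 676 bases took 11.4% to 58.8% of the gene's TPM, so the summed TPM of Nlrp3 leans on how reads were shared between its 3 transcripts.

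Mefv on chromosome 16 (3707218 to 3718097, minus strand) encodes pyrin, the sensor that is mutated in familial Mediterranean fever. Its levels were 87.5, 92.2 and 84.0 CPM in Control, 62.0, 50.1 and 65.8 in CD40 agonist, 198, 149 and 67.9 in CSF1Ri, and 58.8, 132 and 71.7 in Combination. All 3 CD40 agonist libraries were below all 3 Control libraries. CSF1Ri replicates 1 and 2 were again the highest of the 12, with replicate 3 below Control. CD40 agonist differed from Control by -0.57 on the log2 scale (SE 0.36, edgeR adjusted p = 0.765) and CSF1Ri by 0.65 (SE 0.36, edgeR adjusted p = 0.618). Combination against CSF1Ri differed by -0.66 (SE 0.36, edgeR adjusted p = 0.372). Without CSF1Ri replicate 1 the CSF1Ri difference from Control was 0.29 and that of Combination from CSF1Ri was -0.31. The latter was -1.08 without Combination replicate 2.

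Nlrp3 and Mefv shared this split of the CSF1Ri group. The mean of CSF1Ri replicates 1 and 2 was 4.73 times replicate 3 for Nlrp3 and 2.55 times for Mefv, against a median of 0.994 over all tested genes, 19.5% of which exceeded 1.5. For 4.87% of all tested genes, those same libraries were the 2 highest of the 12. The split was also present in the summed level of 10 neutrophil markers, all of them tested, at 3238, 2379 and 778 CPM in CSF1Ri. That sum ranged from 547 to 1364 CPM in Control, 463 to 599 in CD40 agonist and 811 to 2353 in Combination. Within the list, S100a8, a calprotectin subunit abundant in neutrophils, had 861, 613 and 80.0 CPM in CSF1Ri. The neutrophil surface marker Ly6g had 0.306, 0 and 0.0874 CPM there, and Ly6g, Camp and Ngp were at 0 in some libraries. Retnlg of the same list had 572, 296 and 292 CPM in CSF1Ri, with replicate 3 close to replicate 2. Other cell types differed between these libraries too. The monocyte marker sum was 8052, 7467 and 5540 CPM in CSF1Ri. Dendritic cell and fibroblast sums ran the other way, at 411, 511 and 925 and at 18.8, 28.7 and 147 CPM. The part of any of these cells in the levels of Nlrp3 and Mefv was not tested. With CD40 agonist replicate 1, CSF1Ri replicate 3 and Combination replicate 2 all left out, a choice made after seeing the data, both genes passed the test. CSF1Ri was then higher than Control by 1.68 for Nlrp3 (edgeR adjusted p = 0.0128) and by 0.98 for Mefv (edgeR adjusted p = 0.0381). Combination was then lower than CSF1Ri, with a log2 difference of -1.48 for Nlrp3 (edgeR adjusted p = 0.0211) and of -1.41 for Mefv (edgeR adjusted p = 0.0123). That fit has only 2 libraries in each of those 3 groups, and many other genes passed in it too. It called 348 of 16382 tested genes in CSF1Ri against Control and 656 in Combination against CSF1Ri. With all 12 libraries these were 2 and 311 of 16027.

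**Figure D3:**
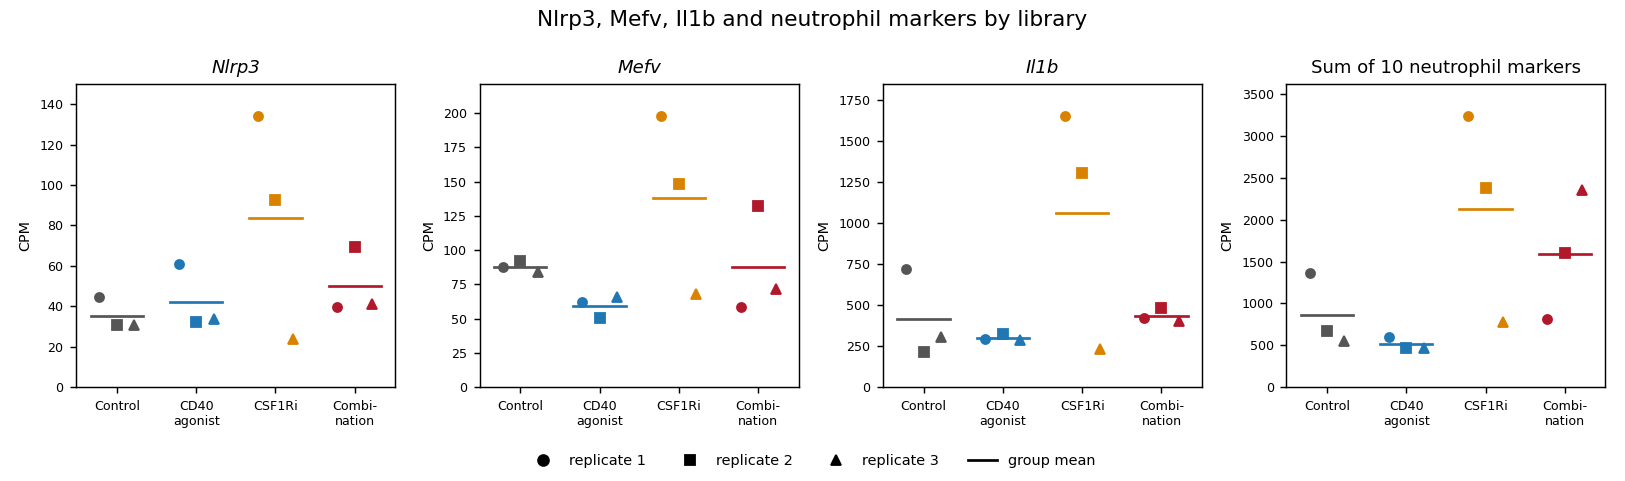
CPM (y axes, linear from 0) of Nlrp3, Mefv and Il1b and the sum of 10 neutrophil markers in each library of the 4 groups (x axes), with group means of 3 as lines. CSF1Ri replicates 1 and 2 lie above replicate 3 in all 4 panels, at 3238 and 2379 against 778 CPM for the marker sum.

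Promoter windows of 300 bases, 250 before and 50 after the annotated start, were held in RefSeq (GRCm38.p6) for 9 of the 10 genes, 11 windows in all. Gsdmd had no entry. Sites of NF-κB, the factor best known for priming Nlrp3, were searched by name as its standard consensus on both strands, and 3 of 11 windows held a match, against 4.51% of all 32851 windows. They were 1 of the Nlrp3 windows and both of the overlapping Casp4 windows. The windows of 5 genes are shown, those with their highest values under CSF1Ri (Nlrp3 and Mefv) and those whose CSF1Ri libraries did not overlap Control (Pycard, Casp1 and Casp4), with capitals marking NF-κB matches. They are Nlrp3 at chr11:59542436-59542735 (window 1) and chr11:59541319-59541618 (window 2), Casp1 at chr9:5298267-5298566 and Casp4 at chr9:5308599-5308898, all on the plus strand. Mefv at chr16:3718075-3718374 and Pycard at chr7:127993818-127994117 are on the minus strand.
Nlrp3, window 1: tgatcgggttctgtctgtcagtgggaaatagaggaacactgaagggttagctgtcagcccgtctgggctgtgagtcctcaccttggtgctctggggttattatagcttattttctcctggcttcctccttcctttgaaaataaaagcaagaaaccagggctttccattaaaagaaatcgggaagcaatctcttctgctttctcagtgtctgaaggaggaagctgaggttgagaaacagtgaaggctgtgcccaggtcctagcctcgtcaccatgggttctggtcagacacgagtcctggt
Nlrp3, window 2: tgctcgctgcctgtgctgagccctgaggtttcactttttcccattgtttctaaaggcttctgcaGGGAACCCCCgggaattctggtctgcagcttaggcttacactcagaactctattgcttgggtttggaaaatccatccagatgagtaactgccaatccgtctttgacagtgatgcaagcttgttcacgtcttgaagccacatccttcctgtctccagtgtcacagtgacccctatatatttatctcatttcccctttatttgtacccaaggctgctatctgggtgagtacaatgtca
Casp4: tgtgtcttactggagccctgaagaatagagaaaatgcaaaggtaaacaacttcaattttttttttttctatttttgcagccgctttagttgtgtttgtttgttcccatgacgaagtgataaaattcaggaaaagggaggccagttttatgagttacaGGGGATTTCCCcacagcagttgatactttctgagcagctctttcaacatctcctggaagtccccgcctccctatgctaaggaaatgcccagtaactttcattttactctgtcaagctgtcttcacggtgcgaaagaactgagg
Mefv: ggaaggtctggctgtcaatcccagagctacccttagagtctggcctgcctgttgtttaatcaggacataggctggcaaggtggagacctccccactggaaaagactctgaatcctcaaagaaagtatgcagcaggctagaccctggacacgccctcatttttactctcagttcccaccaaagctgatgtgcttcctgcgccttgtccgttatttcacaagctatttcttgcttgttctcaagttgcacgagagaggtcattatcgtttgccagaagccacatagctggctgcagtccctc
Pycard: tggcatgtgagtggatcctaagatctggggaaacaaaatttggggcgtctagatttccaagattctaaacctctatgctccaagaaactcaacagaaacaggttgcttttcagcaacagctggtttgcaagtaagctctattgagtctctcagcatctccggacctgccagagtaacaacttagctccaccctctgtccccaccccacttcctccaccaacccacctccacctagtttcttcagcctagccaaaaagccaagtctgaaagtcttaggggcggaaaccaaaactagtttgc
Casp1: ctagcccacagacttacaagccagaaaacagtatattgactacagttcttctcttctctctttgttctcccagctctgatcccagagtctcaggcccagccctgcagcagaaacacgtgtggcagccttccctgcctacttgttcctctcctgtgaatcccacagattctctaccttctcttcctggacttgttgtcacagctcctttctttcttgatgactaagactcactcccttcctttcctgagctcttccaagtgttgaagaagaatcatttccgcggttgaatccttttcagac
The Nlrp3 match starts 186 bases before the start site. In Casp4 a pair of overlapping matches begins 93 and 92 bases before it. Window 1 of Nlrp3 and the windows of Mefv, Pycard and Casp1 held none. The PU.1 core GAGGAA, searched on both strands, was in 4 of the 11 windows, those of Nlrp3 (window 1), Aim2, Pycard and Casp1, against 28.3% of all windows. The interferon-γ site TTCNNNGAA, the interferon-response core GAAANNGAA and the AP-1 site TGANTCA were in 0 of 11, against 8.3%, 8.56% and 7.81%. A match describes these letters only and is not a measured binding site.

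For the other sensors all 3 CSF1Ri libraries lay within the Control range. Nlrc4 on chromosome 17 (74425438 to 74459142, minus strand) encodes the platform that NAIP proteins activate on binding bacterial flagellin or secretion needles. It had 13.4, 7.63 and 21.9 CPM in Control, 8.56, 13.5 and 15.9 in CD40 agonist, 14.3, 19.9 and 10.1 in CSF1Ri, and 20.9, 52.5 and 23.4 in Combination. All 3 Combination libraries lay above all libraries of both single agents, while the lowest of them lay within the Control range. Combination was higher than Control by 1.17 on the log2 scale (SE 0.47, edgeR adjusted p = 0.283), than CD40 agonist by 1.35 (SE 0.48, edgeR adjusted p = 0.414) and than CSF1Ri by 1.13 (SE 0.47, edgeR adjusted p = 0.240). Without Combination replicate 2 these differences were 0.63, 0.81 and 0.59, and without all 3 libraries that stood apart 0.63, 0.59 and 0.37. Only 1 of the 10 genes, Nlrc4, separated Combination from CD40 agonist without overlap (13.5% of all genes did), and only Nlrc4 separated it from CSF1Ri (21.9% of all genes).

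Aim2 on chromosome 1 (173350879 to 173466040, plus strand) encodes a sensor of cytosolic double-stranded DNA. Its levels were 22.9, 22.2 and 9.58 CPM in Control, 28.7, 23.6 and 16.9 in CD40 agonist, 17.5, 18.8 and 21.0 in CSF1Ri, and 12.4, 28.7 and 22.8 in Combination. All 4 groups overlapped, with the lowest library in Control and the highest in CD40 agonist. Its reads were shared over 7 transcripts, and a 383-base transcript not marked as coding held a median of 26.1% of its TPM.

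Pycard on chromosome 7 (127989708 to 127993867, minus strand) encodes ASC, which links the sensors to caspase-1. It had 99.8, 122 and 90.7 CPM in Control, 95.5, 137 and 113 in CD40 agonist, 163, 144 and 142 in CSF1Ri, and 158, 259 and 130.3 in Combination. Every CSF1Ri and every Combination library was above every Control library. Combination was higher than Control by 0.81 on the log2 scale (SE 0.24), the smallest unadjusted p of the 10 genes in that comparison, but the edgeR adjusted p was 0.154. DESeq2 gave 0.83 with an adjusted p of 0.0277, so the call rests on the choice of test. The difference was 0.47 without Combination replicate 2. CSF1Ri was higher than Control by 0.52 (SE 0.24, edgeR adjusted p = 0.528), and Combination was higher than CD40 agonist by 0.66 (SE 0.24, edgeR adjusted p = 0.423). The latter was 0.32 without Combination replicate 2 and 0.20 without the 3 libraries that stood apart. The 493-base transcript Pycard-202 held 90.4% to 92.6% of the TPM in every library, so the split between transcripts moved little. In estimated counts, on which the test ran, it held 25027 over all libraries and the 3800-base Pycard-201 held 27503. The high TPM of Pycard thus leans on the short transcript. An unstranded library cannot part Pycard reads from those of Gm45205, an antisense gene sharing 485 exonic bases with it and not quantified separately in the files.

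Casp1 on chromosome 9 (5298517 to 5307265, plus strand) encodes the protease that matures interleukin-1β and interleukin-18. It had 114 (replicate 1), 124 and 125 CPM in Control, 59.9, 97.9 and 88.2 in CD40 agonist, 105, 102 and 95.4 in CSF1Ri, and 89.3, 209 and 105 in Combination. All libraries of both single agents were below all Control libraries, while the Combination range spanned Control. CD40 agonist differed from Control by -0.57 on the log2 scale (SE 0.28, edgeR adjusted p = 0.688), or -0.37 without CD40 agonist replicate 1, and CSF1Ri by -0.27 (SE 0.28, edgeR adjusted p = 0.861). Combination against CD40 agonist differed by 0.71 (SE 0.29, edgeR adjusted p = 0.467). The interaction for Casp1 was 0.98 (SE 0.40, edgeR adjusted p = 0.569) and Combination replicates 1 and 3 both lay below Control. Without Combination replicate 2 the difference from CD40 agonist was 0.24 and the interaction 0.51, and without the 3 libraries that stood apart they were 0.06 and 0.29.

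Casp4, its neighbour on chromosome 9 (5308828 to 5336783, plus strand), encodes mouse caspase-11, which binds bacterial lipopolysaccharide in the cytosol and cuts gasdermin D directly. Its levels were 64.8, 46.7 and 70.2 CPM in Control, 74.0, 84.1 and 56.2 in CD40 agonist, 111, 104 and 76.5 in CSF1Ri, and 79.3, 166 and 85.3 in Combination. As with Pycard, all CSF1Ri and all Combination libraries were above all Control libraries, and CD40 agonist overlapped Control. CSF1Ri was higher than Control by 0.68 on the log2 scale (SE 0.29, edgeR adjusted p = 0.501) and Combination by 0.86 (SE 0.29, edgeR adjusted p = 0.208). The second difference was 0.44 without Combination replicate 2. The separation of Pycard and Casp4 is shared by the summed markers of eosinophils, basophils and mast cells, at 87.3 to 133 CPM in Control, 94.0 to 187 in CD40 agonist, 373 to 460.4 in CSF1Ri and 237 to 355 in Combination. Of that list of 10, 9 were tested, and all 9 were higher in CSF1Ri than in Control. In Combination against Control 4 were higher and 5 lower, with a median log2 difference of -0.71. Mcpt8, Cpa3 and Fcer1a, genes of basophils and mast cells, rose there. Il5ra and Ear6 of the same list were lower, Il5ra at 0.218 to 0.305 CPM in Combination and 0.636 to 4.74 in Control. Epx, Prg2 and Mcpt4 were at 0 in some libraries, and the part of these cells in Pycard and Casp4 was not tested. The coding transcript Casp4-201 held a median of 51.5% of the gene's TPM. The retained-intron transcripts Casp4-207 and Casp4-205 held medians of 25.6% and 13.6%, so part of the signal was assigned to RNA that does not encode the full protease.

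Casp8 on chromosome 1 (58795374 to 58847503, plus strand) encodes the apical caspase of death receptors, which can also cut gasdermin D and holds necroptosis in check. It was the steadiest of the 10, at 119, 127 and 111 CPM in Control, 110.0, 135 and 132 in CD40 agonist, 119, 157 and 104 in CSF1Ri, and 119.5, 169.5 and 112 in Combination. Its groups all overlapped, and its highest and lowest libraries were 1.63-fold apart, against 6.88-fold for Nlrc4 and 5.60-fold for Nlrp3.

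Gsdmd on chromosome 15 (75862327 to 75867408, plus strand) encodes gasdermin D, the pore former cut by caspase-1 and caspase-11. It had 158, 166 and 161 CPM in Control, 149, 124 and 114 in CD40 agonist, 143, 122 and 185 in CSF1Ri, and 151, 314 and 135 in Combination. All CD40 agonist libraries were below all Control libraries, whose values lay close together, and the CSF1Ri and Combination ranges spanned Control. CD40 agonist differed from Control by -0.33 on the log2 scale (SE 0.28, edgeR adjusted p = 0.867), and Combination from CD40 agonist by 0.63 (SE 0.28, edgeR adjusted p = 0.542). The latter was 0.15 without Combination replicate 2.

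Il18 on chromosome 9 (50554827 to 50581840, plus strand) encodes interleukin-18, a cytokine that drives interferon-γ release from T and NK cells. It had 22.7, 54.3 and 32.4 CPM in Control, 35.5, 47.7 and 42.4 in CD40 agonist, 40.8, 52.9 and 36.1 in CSF1Ri, and 23.0, 86.4 and 34.8 in Combination. All groups overlapped, and replicate 2 was the highest library of each group, a shared number that the labels do not tie to a batch.

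Read by comparison, 3 of the 10 genes were lower in every CD40 agonist library than in every Control library (Casp1, Gsdmd and Mefv), where 17.1% of all genes separated in either direction. CSF1Ri separated from Control for 3 genes, higher for Pycard and Casp4 and lower for Casp1 (15.8% of all genes). Combination separated from Control for 2, both higher, Pycard and Casp4 (22.3% of all genes). The median log2 difference of the 10 genes was 0.11 for CD40 agonist, 0.17 for CSF1Ri and 0.35 for Combination, each against Control, with 6, 8 and 9 genes on the positive side. Over all tested genes these medians were 0.01, -0.01 and 0.00, and 50.9%, 48.3% and 50.2% of genes were positive. Without Combination replicate 2, the Combination median against Control was -0.05, with 4 of 10 genes positive (Nlrp3, Nlrc4, Pycard and Casp4). The 3 comparisons share the Control libraries, so their values are given side by side only. Combination against CD40 agonist had a median of 0.59 with 9 of 10 positive, and Combination against CSF1Ri had 0.17 with 8 of 10 positive. Without Combination replicate 2 these were 0.14 with 6 positive and -0.12 with 1 positive, Nlrc4. Leaving out all 3 libraries that stood apart gave 4, 7 and 2 positive genes in the 3 Combination comparisons, with medians of -0.05, 0.19 and -0.17. In CSF1Ri against Control it gave 7 positive genes and a median of 0.31.

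The Combination values turned on 1 library. Combination replicate 2 was the highest of all 12 libraries for 7 of the 10 genes (Nlrc4, Pycard, Casp1, Casp4, Casp8, Gsdmd and Il18), as it was for 12.3% of all tested genes. It exceeded the mean of Combination replicates 1 and 3 for all 10, by 1.47 times for Casp8 up to 2.99 times for Il18. The median ratio was 2.02 for the 10 genes and 0.943 for all tested genes, 17.6% of which exceeded 1.5. The same library had a monocyte marker sum of 14998 CPM over 9 markers, against 4876 and 5731 in replicates 1 and 3. That sum ranged from 5102 to 6038 CPM in Control, 4942 to 6386 in CD40 agonist and 5540 to 8052 in CSF1Ri, and no marker of the list was at 0 in any library. In that library 6 of the 9 monocyte markers were above both other Combination libraries, Nr4a1 lay between them, and Ace and Cd300e, genes of patrolling monocytes, were below both. Treml4, another gene of patrolling monocytes, was among the 6, at 519.7 CPM against 168.8 and 185.2. Ly6c2, a marker of classical monocytes, was 2528 CPM against 361 and 560.1, and Cd300e was 47.1 CPM against 54.2 and 73.2. Its dendritic cell marker sum over 7 markers was 96.8 CPM against 1100.2 and 1153, and that sum ranged from 707 to 926 in Control, 685 to 896 in CD40 agonist and 411 to 925 in CSF1Ri. Clec9a, a dendritic cell marker, was at 0 in some libraries. The 10 macrophage markers summed to 2470 CPM in Combination replicate 2, against 1982 and 1898, with 4 above and 6 below both other libraries, the C1q genes among the 6. The part of these differences in cell makeup in the levels of the 10 genes was not tested.

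**Figure D4:**
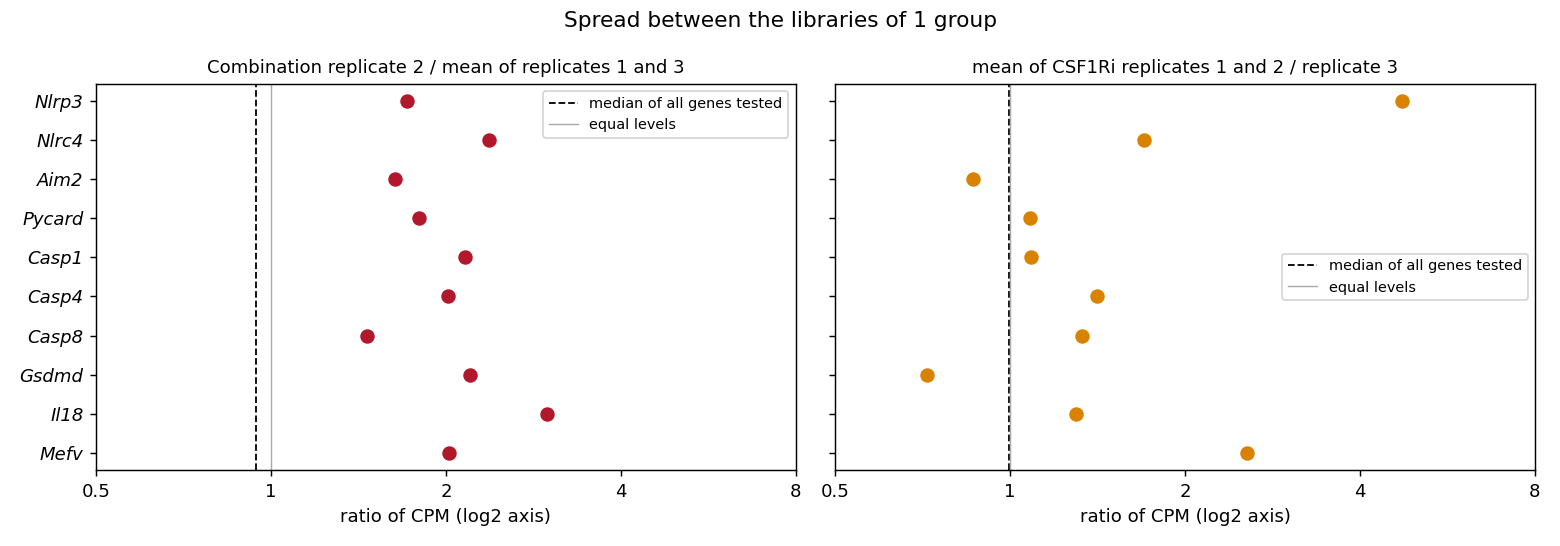
Ratio of CPM between libraries of 1 group for each of the 10 genes (x axes, log2 scale). The left panel sets Combination replicate 2 over the mean of replicates 1 and 3, where all 10 lie above the dashed median of all tested genes (0.943). The right panel sets the mean of CSF1Ri replicates 1 and 2 over replicate 3, where Nlrp3 (4.73) and Mefv (2.55) lie farthest from the dashed median (0.994).

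Among the genes around the pathway, the IL-1 family list of 12 ligands, receptors and inhibitors held the only call. It was Il18bp, on chromosome 7 (102014885 to 102018690, minus strand), which encodes the secreted protein that binds and blocks interleukin-18. Its levels were 13.2, 7.75 and 13.1 CPM in Control, 7.59, 15.5 and 18.3 in CD40 agonist, 4.28, 8.84 and 7.49 in CSF1Ri, and 28.5, 107 and 38.5 in Combination. All 3 Combination libraries were above all 9 others. Il18bp rose in Combination against CSF1Ri by 3.08 on the log2 scale (SE 0.55, edgeR adjusted p = 0.0250), and its adjusted p for any difference among the groups was 0.0368. The rise was 2.29 without Combination replicate 2, with an edgeR adjusted p of 0.0301. The call ended when any CSF1Ri library was left out, with edgeR adjusted p of 0.0904, 0.0900 and 0.0505 without replicates 1, 2 and 3, and the log2 difference stayed between 2.82 and 3.30. Against Control the difference was 2.36 (SE 0.53, edgeR adjusted p = 0.0733, DESeq2 adjusted p = 0.00036), and against CD40 agonist 2.07 (SE 0.53, edgeR adjusted p = 0.285, DESeq2 adjusted p = 0.00801). These were 1.57 and 1.28 without Combination replicate 2, and without the 3 libraries that stood apart 1.56 and 0.99. The interaction was 2.80 (SE 0.74, edgeR adjusted p = 0.371, DESeq2 adjusted p = 0.0192), or 1.78 without those 3. A tail-to-tail neighbour, Numa1, shares 80 exonic bases with Il18bp on the other strand, which unstranded reads cannot part.

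**Figure D5:**
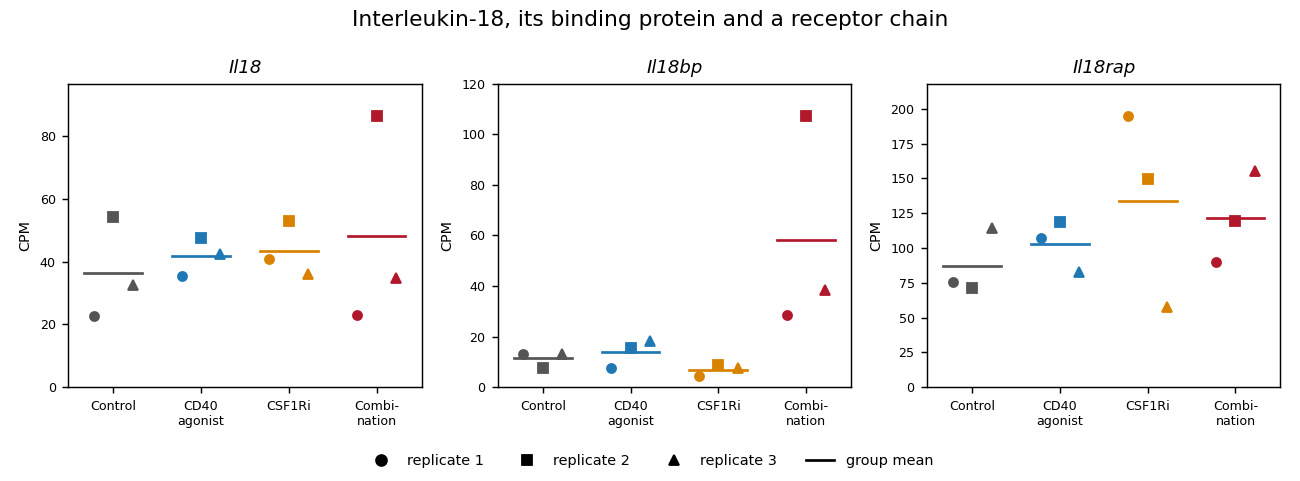
CPM (y axes, linear from 0) of Il18, its binding protein Il18bp and the receptor chain Il18rap in each library of the 4 groups (x axes), with group means of 3 as lines. For Il18bp the 3 Combination libraries, at 28.5 to 107 CPM, lie above the other 9, which reach 18.3 CPM, while the groups overlap for Il18 and Il18rap.

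The rest of the IL-1 list passed nothing in any comparison. At an unadjusted p under 0.05, edgeR gave 4 of the list's 12 genes for CSF1Ri against Control (9.47% of all genes), Il1a, Il1b, Il1r2 and Il1rap. Those 4 are named after their values were seen. At the same cut it gave 1 of the 12 for CD40 agonist against Control (7.68%) and 3 for Combination against Control (14.8%). Il1b, the ligand whose precursor caspase-1 cuts, had 717, 216 and 304 CPM in Control, 293, 322 and 284 in CD40 agonist, 1649, 1303 and 232 in CSF1Ri, and 422, 479 and 400.3 in Combination. It followed the split of the CSF1Ri group that Nlrp3 and Mefv had, high in replicates 1 and 2 and low in replicate 3. The decoy receptor Il1r2 had 742, 634 and 49.3 CPM in the CSF1Ri libraries and 48.2 to 194 in Control, again with the third library low. Il33, an alarmin of barrier cells and the gene of the list with the largest fitted change in Combination, was at 0 in all 3 Control and all 3 CSF1Ri libraries. It had 5.72, 1.56 and 0 CPM in Combination, so no fold is given.

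Of 11 other sensors, 10 were tested and none passed in any comparison. In Combination against Control, 5 were on the positive and 5 on the negative side, with a median log2 difference of 0.07. Leaving out Combination replicate 2 gave 1 and 9, with a median of -0.54. By the naming rule, Nlrp10 had 0.626, 0.779 and 2.63 CPM in Combination and 0.837 to 6.65 in Control. Nlrp12, a negative regulator of inflammatory signalling, had 16.1, 8.13 and 1.52 CPM in CSF1Ri against 0.502 to 7.26 in Control, with the order of replicates that Nlrp3 had. The Naip genes, near-identical copies among which reads can be misassigned, had a highest level of 138 CPM, for Naip5 in CSF1Ri replicate 3.

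Of the 7 other gasdermin and membrane rupture genes, 4 were tested and none passed. Gsdme, another gasdermin, had 89.1, 81.6 and 107 CPM in Combination, below all 3 Control libraries at 118 to 143. Gsdma, a skin gasdermin, had 1.06, 7.63 and 0.603 CPM in Control and at most 0.321 CPM in the 9 treated libraries. Keratinocyte markers, which share its tissue, summed to 15.4, 78.5 and 17.1 CPM in the same Control libraries. Their sum was 11.0 to 30.2 CPM in CD40 agonist, 9.37 to 12.7 in CSF1Ri and 7.12 to 114 in Combination, with all 7 tested and Krt1, Krt5, Krt10, Krt15 and Dsp at 0 in some libraries, and their part in Gsdma was not tested. Ninj1, which ruptures the membrane of dying cells, had 91.2, 120.0 and 68.9 CPM in Combination and 76.7 to 100.4 in Control.

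All 12 genes for the activation and licensing of NLRP3 were tested and none passed. Tlr2, a receptor of bacterial lipoproteins that primes the pathway, had 103, 82.5 and 81.4 CPM in Control, 178, 188 and 148 in CD40 agonist, 326, 296 and 76.6 in CSF1Ri, and 204, 460 and 203 in Combination. Every CD40 agonist and Combination library exceeded every Control library, while the third CSF1Ri library was below them. P2rx7, the ATP-gated channel that triggers potassium efflux, had 18.5, 27.3 and 18.6 CPM in Combination against 25.3 to 37.8 in Control. Nek7, the kinase that NLRP3 needs for assembly, lay between 71.6 and 111 CPM over all 12 libraries.

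Among 9 partners of caspase-8 and necroptosis genes, none passed. In Combination against Control 8 were on the positive side, with a median log2 difference of 0.64. Over all tested genes 50.2% were positive, with a median of 0.00. Without Combination replicate 2, 8 of the 9 were again positive, with a median of 0.32. CD40 agonist against Control had 2 positive and 7 negative, and CSF1Ri against Control had 5 and 4. Zbp1, a sensor of Z-form nucleic acids that engages Ripk3, had 50.6, 250 and 75.5 CPM in Combination and 41.2 to 48.5 in Control. Mlkl, the executioner of necroptosis, had 13.8, 49.2 and 25.8 CPM in Combination and 10.8 to 14.9 in Control. Replicate 2 was the highest Combination library for both genes, as for the 10 inflammasome genes.

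Likeness over libraries was read for the 2 of the 10 genes with the smallest p for any difference, Pycard and Nlrc4. The 5 genes whose log2 CPM was most like Pycard over the 12 libraries were Usp8 and Pdcd6 (Pearson r of 0.94 for both), H2-D1 and Cd302 (0.92 for both) and Ublcp1 (0.91). Without Control replicate 3 and Combination replicate 2, the libraries farthest from the Pycard median, r was 0.71 to 0.92. For Nlrc4 they were Lap3 (0.93), Nfkbid (0.92), Cflar, Pnp2 and Exoc2 (0.90 for all 3), and r was 0.73 to 0.84 without Control replicate 2 and Combination replicate 2. These genes were picked as the highest of 16027, and the points share the spread of Combination replicate 2, so the values are descriptions.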

How the data were processed

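The submitters' processing notes name STAR, HTSeq and DESeq2 and the build mm10; the quantifier and annotation behind the deposited tables were not given in the sources used here. Per the file headers, the authors deposited an estimated count and a TPM value for each transcript. Unstranded libraries from 50 ng of RNA were read as 75-base pairs, 6 libraries to a lane, per the labels' protocols. Of 111462 transcripts, 98.9% matched GENCODE M21 and were summed to 34989 genes. Unmatched transcripts held 0.378% to 0.436% of the counts. Gene sums were rounded to whole counts and tested with edgeR 4.0.16 in R 4.3.3 (TMM scaling, filterByExpr, quasi-likelihood test, all 12 libraries in 1 fit, 8 residual degrees of freedom, no covariate). Two-sided p-values were adjusted by Benjamini-Hochberg over 16027 genes, with a threshold of 0.05. CPM uses TMM-scaled library sizes. The fit was tested on simulated data.

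Alternatives were DESeq2 1.42.0, limma 3.58.1 (voom, or log2 of TPM plus 1 or plus 0.1), another normalization, no filter, bias-adjusted edgeR, a replicate block, the compared groups alone, and leaving out libraries. No library pair of 66 was identical. The genes and lists were chosen with earlier results of these data known. Named are all 10 genes and any gene of the other pathway lists that passed. From each of those lists the 2 with the largest log2 difference in Combination against Control are named too. Il1b, Il1a, Il1r2, Il1rap, Nek7, Ninj1, Naip5 and the markers were named after their values were seen. Cell type markers that passed were not all named. Part of the mouse genotype is not reported here.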

Additional observations from a re-analysis of the deposited data

How the results depend on the processing

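Over 22 alternatives, none of the 23 single-gene log2 differences printed changed sign. They had been picked for an unadjusted p under 0.05, groups that did not overlap or a pass in some setting. A steady sign was thus partly built in. Of 504 comparisons of such a value with its alternative, 490 stayed on the same side of the threshold, most of them by missing it both times. For the count of the 10 genes passing, leaving out each library in turn gave 0 in every comparison (lowest 0, highest 0). The exceptions were 1 gene, Pycard, for Combination against Control with DESeq2, and 2 genes, Nlrp3 and Mefv, without the 3 libraries that stood apart, in CSF1Ri against Control, in Combination against CSF1Ri and in the test for any difference. That exclusion was chosen after seeing the data, and its fit called 348, 656 and 581 of 16382 tested genes in those tests, in that order. DESeq2 called 1130 of 15123 genes in Combination against Control. For Il18bp in Combination against CSF1Ri the edgeR call was kept under 17 alternatives and lost with limma voom (adjusted p = 0.0621), with the 6 compared libraries alone (edgeR adjusted p = 0.133) and without any 1 CSF1Ri library. For Il18bp in Combination against Control, the call was gained with DESeq2 and with bias-adjusted edgeR (adjusted p = 0.0461). The cause of these changes was not tested. Of another 41 differences of the 10 genes, given without a direction, 31 changed sign under some alternative. With the replicate block, 0 of the 10 genes passed in any comparison. No pairing of libraries by number was seen. Over 18 pairs with the same number, the correlation of deviations from the group means ran from -0.061 to 0.06. Over pairs with other numbers it ran from -0.107 to 0.073, and 6 of 12 libraries correlated best with their own number. With 3 libraries a group, this check has little power to find a shared batch. With 3 libraries a group and a coefficient of variation of 61%, the spread between libraries sets the precision of these tests. The lowest level of the 10 genes was 7.63 CPM (Nlrc4 in Control replicate 2), so depth bears mainly on genes near 0 such as Il33 and Gsdma.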

Other observations

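The apoptotic caspases and their platform, a list of 7 genes that were all tested, passed nothing in any comparison with edgeR. In Combination against Control, 4 were on the positive and 3 on the negative side, with a median log2 difference of 0.22. Casp6, an effector caspase, had 75.7, 86.2 and 72.3 CPM in Control, 131, 114 and 125 in CD40 agonist, 264, 225 and 68.0 in CSF1Ri, and 87.6, 90.1 and 153 in Combination. All CD40 agonist and all Combination libraries were above all Control libraries, while the third CSF1Ri library was below them. Casp12, an inflammatory caspase near Casp1 and Casp4 that the list holds, had 1.74, 16.2 and 3.37 CPM in Combination, and 0, 0.981 and 4.49 in Control.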
